A study of Mus musculus with 12 samples.

Results

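The 8 Toll-like receptor genes of the panel other than Tlr4 (Tlr1, Tlr2, Tlr3, Tlr5, Tlr6, Tlr7, Tlr8 and Tlr9) were taken by symbol from the 770 genes measured and described across 12 tumors. The tumors were grown from A20, a mouse B-cell lymphoma line, by subcutaneous implantation in female Balb/c mice of 7 to 8 weeks, and all 3 groups carried the same unmodified tumor cells. From about day 7 each tumor was injected 3 times, every other day, with PBS (n = 4), with stable emulsion alone at 2% (SE, n = 4), or with 10 ug of the TLR4 agonist GLA in that emulsion (GLA-SE, called G100 in the study, n = 4), and it was collected 2 h after the last injection. GLA acts through TLR4, so the comparisons ask how the transcripts of the receptors that it does not engage differed after injection. GLA-SE and PBS tumors differ in both GLA and emulsion, and GLA-SE and SE tumors differ in GLA alone. Whole tumors were measured, so fewer cells of a type and less RNA per cell cannot be told apart. A single transplanted line is the model, and no further B-cell line or untransplanted lymphoma was measured here.

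Toll-like receptors are sensors of microbial molecules on innate immune cells and B cells. Tlr2 works at the cell surface in pairs with Tlr1 or Tlr6 and recognizes bacterial lipoproteins, and Tlr5 recognizes flagellin. Tlr3, Tlr7, Tlr8 and Tlr9 sit in endosomes and sense nucleic acids, namely the RNA duplexes made by viruses (Tlr3), unpaired RNA (Tlr7 and its relative Tlr8) and unmethylated CpG DNA (Tlr9). Tlr3 signals through the adaptor Ticam1 (TRIF) and the others through Myd88. Macrophages carry much Tlr2, Tlr7 and Tlr8, and B cells respond strongly to ligands of Tlr9.

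In the RefSeq annotation of GRCm38.p6, Tlr1 and Tlr6 are neighbors on chromosome 5, and Tlr7 and Tlr8 are neighbors on the X chromosome. The table of promoters held 9 windows for 7 of the 8 genes and none for Tlr7. The 200 bases before the annotated start are printed for Tlr8, the endosomal receptor with the largest difference between GLA-SE and PBS tumors below, and for Tlr9, the base of the within-tumor ratios, and these stretches overlap no annotated gene (chrX:167264330-167264529, minus strand, and chr9:106222398-106222597, plus strand). They are in lower case because no letters of the motifs searched were found in them.

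Tlr8: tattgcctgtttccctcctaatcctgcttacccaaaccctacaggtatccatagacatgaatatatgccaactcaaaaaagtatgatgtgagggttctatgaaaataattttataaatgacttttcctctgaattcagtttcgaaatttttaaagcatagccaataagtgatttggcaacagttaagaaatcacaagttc

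Tlr9: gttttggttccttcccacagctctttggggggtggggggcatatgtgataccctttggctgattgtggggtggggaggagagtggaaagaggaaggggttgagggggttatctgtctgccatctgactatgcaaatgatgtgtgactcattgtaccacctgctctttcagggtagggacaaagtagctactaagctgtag

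The 250 bases before each start were searched on both strands for an NF-kB string (GGGA, then CTTT or ATTT, then CC), the interferon response core (GAAA, any 2 bases, then GAAA) and the PU.1 letters GAGGAAGT. Neither form of the NF-kB string was in any of the 9 windows, against 0.14% (with CTTT) and 0.0852% (with ATTT) of 32851 windows of all genes. A Tlr6 window held TTTCTCTTTCACTTTC from 116 bases before the start, in which 2 overlapping matches to the interferon core lie on the opposite strand, and a Tlr1 window held GAGGAAGT 23 bases before the start. These letters occurred in 2.98% (interferon core) and 2.44% (PU.1) of all windows, and each of these genes has a further window without a match. A match is a description of letters and no factor binding was measured.

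Transcripts were measured with nCounter, in which barcoded probes bound to RNA are counted molecule by molecule without amplification, on an immune panel for mouse. Counts summed to between 812522 and 1086462 for a PBS tumor, and the sums were 810260 to 1268512 for SE and 1186487 to 1612415 for GLA-SE. Each count was divided by the geometric mean of the 17 steadiest of 20 reference genes in its tumor. It was then set to a common scale, and the result is called the normalized count. This reference level was 2184 to 2818 for PBS, 1011 to 3077 for SE and 1894 to 2135 for GLA-SE. Every GLA-SE tumor was thus scaled up relative to every PBS tumor, although its summed count was higher. All 750 other genes were compared by edgeR (quasi-likelihood test, with p values adjusted after Benjamini and Hochberg). The 4 tumors of a group came from separate mice, and the comparisons with PBS share the PBS tumors. Probes differ in efficiency, so a gene's count is compared between tumors and not with another gene's count.

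In GLA-SE tumors 7 of the 8 receptors rose against PBS tumors, by 1.82 on the log2 scale for Tlr2, 1.59 for Tlr8, 1.30 for Tlr7, 1.07 for Tlr5, 0.63 for Tlr1, 0.41 for Tlr9 and 0.36 for Tlr6. Of all 750 genes, 68.7% were called in this comparison (68.3% higher), so the count of members is read against a rise of most of the panel. The members' median log2 fold change was 0.85, beside 0.89 over all genes. On the scale of the panel median, in contrast, the median gene of the panel stood at -0.40, and Tlr1, Tlr6 and Tlr9 were called lower while Tlr2, Tlr7 and Tlr8 kept a positive sign without a call.

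Tlr2, the shared partner of the lipoprotein receptors, had normalized counts of 132, 108, 100.05 and 129 in the PBS tumors. They were 243, 316, 734 and 365 in the GLA-SE tumors. Every GLA-SE tumor lay above every PBS tumor, and replicate 3 stood above the other GLA-SE tumors. The log2 fold change was 1.82 (standard error 0.34, adjusted p = 0.00204 by edgeR). Without that tumor the log2 fold change was 1.39, the lowest value when any tumor was left out.

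Tlr1, its partner for triacylated lipoproteins, was at 619.8, 613, 563 and 608 in the PBS tumors and at 819, 968, 1022 and 913 in the GLA-SE tumors. The groups did not overlap and the spread within each was small (log2 fold change 0.63, standard error 0.11, adjusted p = 0.00125 by edgeR). Tlr6, the partner for diacylated lipoproteins, was at 355, 348, 295 and 355 in the PBS tumors and at 409.6, 428, 467 and 434 in the GLA-SE tumors. The groups lay apart on the normalized scale but overlapped as deposited counts, which were 372 to 447 for PBS and 412 to 430 for GLA-SE (log2 fold change 0.36, standard error 0.12, adjusted p = 0.0246 by edgeR).

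Tlr5, the flagellin receptor, was at 25.4, 22.4, 11.7 and 16.7 in the PBS tumors and at 37.6, 45.7, 34.8 and 40.7 in the GLA-SE tumors. The groups did not overlap (log2 fold change 1.07, standard error 0.26, adjusted p = 0.00662 by edgeR). The deposited counts behind it were only 16 to 50 over the 12 tumors. As a gauge of that level, 8 liver or lung genes on the panel, chosen after the data were seen, had a median count of 18.5 and a range of 5 to 223. All deposited counts of Tlr3 (17 to 72) and Tlr7 (45 to 190) also lay within that range. So did those of Tlr2 (116 to 163) and Tlr8 (100 to 135) in the PBS tumors.

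Among the endosomal receptors Tlr8 differed most, with 121, 93.5, 90.6 and 107 in the PBS tumors and 334, 406, 254 and 246 in the GLA-SE tumors. The lowest GLA-SE tumor was above the highest PBS tumor (log2 fold change 1.59, standard error 0.21, adjusted p = 0.000437 by edgeR). Tlr7, which lies beside it on the X chromosome, was at 82.9, 53.3, 65.7 and 69.9 in the PBS tumors and at 139, 179.6, 203 and 149 in the GLA-SE tumors. These groups did not overlap either (log2 fold change 1.30, standard error 0.21, adjusted p = 0.00106 by edgeR).

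Tlr9, the CpG DNA sensor, was at 598, 539, 497 and 590.1 in the PBS tumors and at 677, 801, 624 and 853 in the GLA-SE tumors. The groups lay apart on the normalized scale and overlapped as deposited counts, which were 577 to 743 and 574 to 839 (log2 fold change 0.41, standard error 0.13, adjusted p = 0.0238 by edgeR). The call for Tlr9 was lost without PBS replicate 2 or 3 or without GLA-SE replicate 2 or 4, and that for Tlr6 without PBS replicate 3. Tlr3, the sensor of RNA duplexes, was at 42.4, 33.7, 28.5 and 27.8 in the PBS tumors and at 49.1, 74.8, 42.4 and 39.7 in the GLA-SE tumors. Its groups overlapped, and it did not pass the test (log2 fold change 0.64, standard error 0.26, adjusted p = 0.0537 by edgeR). It passed the test when PBS replicate 1 or GLA-SE replicate 3 or 4 was left out.

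By an exact permutation test (two-sided, 70 assignments), the 7 members whose groups did not overlap had p = 0.0286, the smallest p that 4 against 4 allows, and 0.0442 after adjustment over all 750 genes. Of all genes, 63.6% were higher in every GLA-SE tumor than in every PBS tumor. Tlr3 had an exact p = 0.0857, or 0.113 after adjustment.

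**Figure D1:**
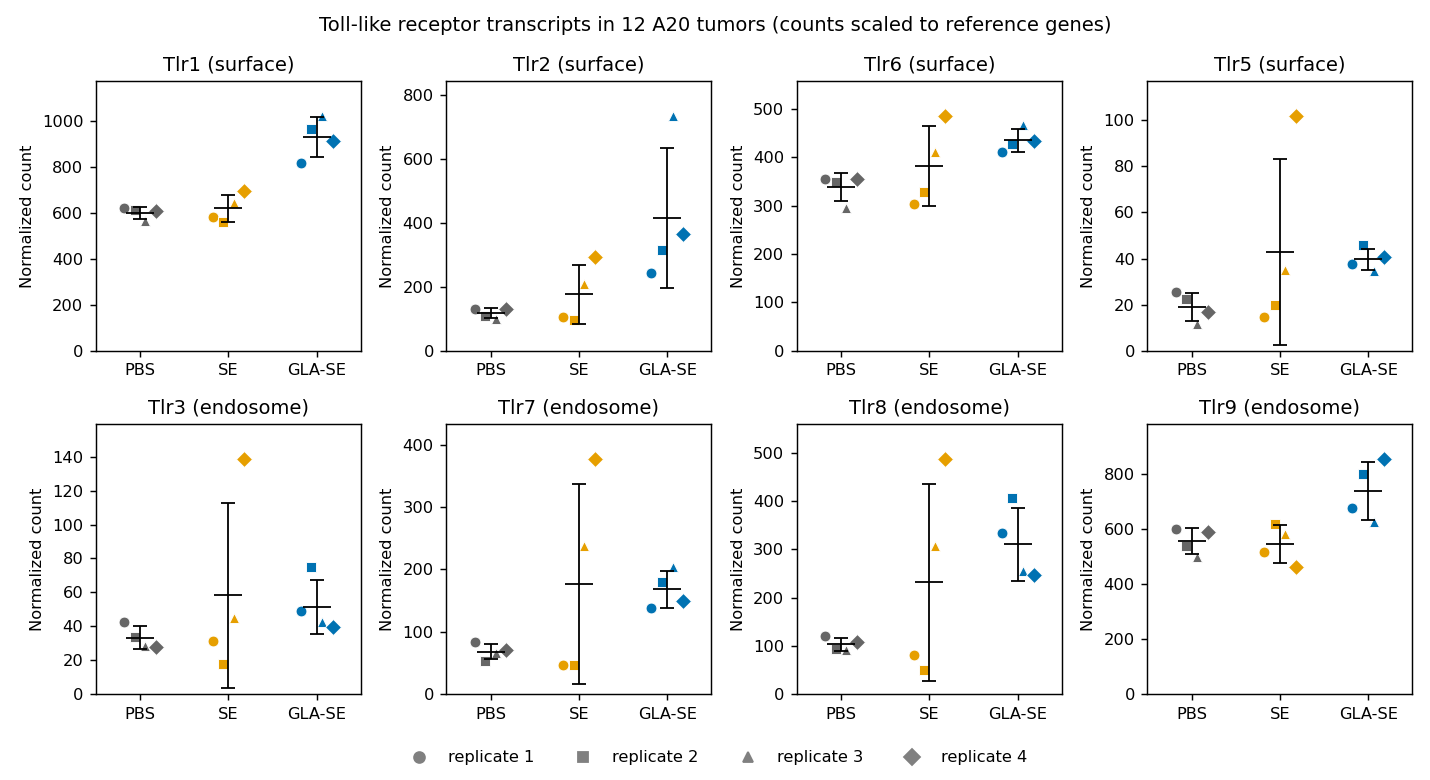
Normalized counts (linear axes from 0) of the 8 receptors in each tumor by group, with symbols for replicate numbers, a horizontal bar for the mean and whiskers for the SD of 4 tumors. All GLA-SE points lie above all PBS points except for Tlr3, and SE replicates 3 and 4 lie above SE replicates 1 and 2 in every panel but that of Tlr9; with scaling to the panel median the fold changes of Tlr1, Tlr3, Tlr5, Tlr6 and Tlr9 for GLA-SE against PBS turn negative.

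The scale decided the direction for several receptors. With TMM, which centers the bulk of the panel and put the median gene at -0.01, Tlr2 (0.87) and Tlr8 (0.71) were called higher and Tlr6 (-0.54) and Tlr9 (-0.47) were called lower. Tlr7 (0.40), Tlr5 (0.19), Tlr3 (-0.25) and Tlr1 (-0.28) were not called on that scale. With the panel median, Tlr6 (-0.92), Tlr9 (-0.84) and Tlr1 (-0.66) were called lower, and Tlr2 (0.47), Tlr8 (0.34), Tlr7 (0.02), Tlr5 (-0.19) and Tlr3 (-0.62) were not called. The order of the receptors by fold change was the same on these 3 scales, namely Tlr2, Tlr8, Tlr7, Tlr5, Tlr3, Tlr1, Tlr9 and Tlr6, and neighbors in it differed by less than the sum of their errors. A change of scale moves the log2 fold change of every gene by nearly the same amount, so the shared order is no independent support.

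**Figure D2:**
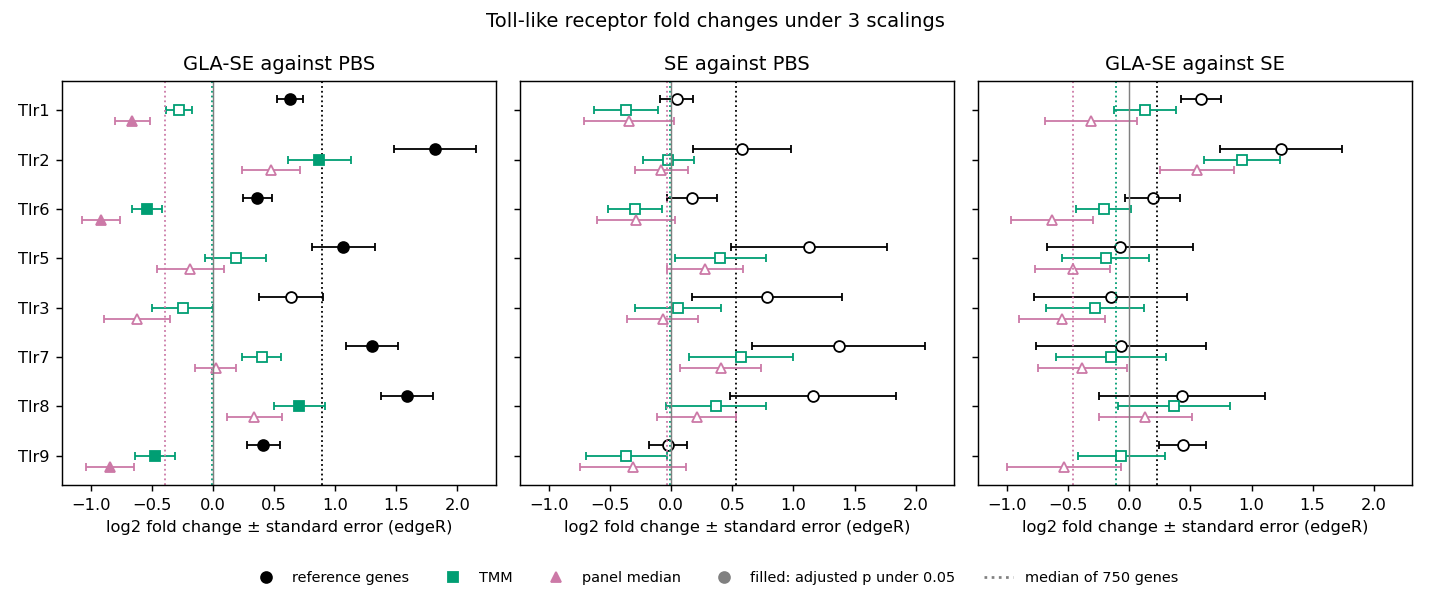
Log2 fold change (horizontal axis, ± standard error, edgeR) of each receptor in the 3 comparisons, with tumors scaled to reference genes (circles), by TMM (squares) or to the panel median (triangles). Filled symbols have an adjusted p under 0.05 and dotted lines mark the median of 750 genes; in GLA-SE against PBS the whole pattern shifts with the scale, and Tlr1, Tlr6 and Tlr9 turn from higher to lower.

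A ratio of 2 counts in the same tumor needs no scaling. Tlr9, a receptor of B cells and so of the cell type of the tumor line, was taken as the base, with 1 count added to each. The log2 ratio of Tlr2 to Tlr9 was -2.17, -2.30, -2.30 and -2.18 in the PBS tumors and -1.48, -1.34, 0.23 and -1.22 in the GLA-SE tumors. Every GLA-SE tumor was above every PBS tumor, with a mean difference of 1.29, or 2.44-fold (exact permutation p = 0.0286).

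The ratio of Tlr8 to Tlr9 was -2.30, -2.52, -2.45 and -2.45 in the PBS tumors and -1.02, -0.98, -1.29 and -1.79 in the GLA-SE tumors, a difference of 1.16 (2.24-fold). That of Tlr7 to Tlr9 was -2.84, -3.32, -2.90 and -3.06 against -2.28, -2.15, -1.61 and -2.50, a difference of 0.89 (1.86-fold). That of Tlr5 to Tlr9 was -4.51, -4.53, -5.32 and -5.08 against -4.14, -4.10, -4.12 and -4.36, a difference of 0.68 (1.60-fold). None of these 3 overlapped between the groups, each with an exact permutation p = 0.0286.

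The partners of Tlr2 showed no such separation. Tlr1 relative to Tlr9 differed by 0.22 (exact permutation p = 0.0857), Tlr6 by -0.04 (exact permutation p = 0.886) and Tlr3 by 0.20 (exact permutation p = 0.429). So 4 of 7 ratios were higher without overlap, beside 33.4% of the 749 other genes set against Tlr9 in the same way. After adjustment over those genes the 4 had p = 0.0778 by the exact permutation test, which does not pass 0.05. Tlr4, the receptor of GLA, differed from Tlr9 by 0.10 (exact permutation p = 0.286), and its own normalized counts rose by 0.51 on the log2 scale (standard error 0.15, adjusted p = 0.0138 by edgeR) on the reference scale but stood at -0.74 with the panel median (adjusted p = 0.0192) and at -0.37 with TMM (adjusted p = 0.141).

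**Figure D3:**
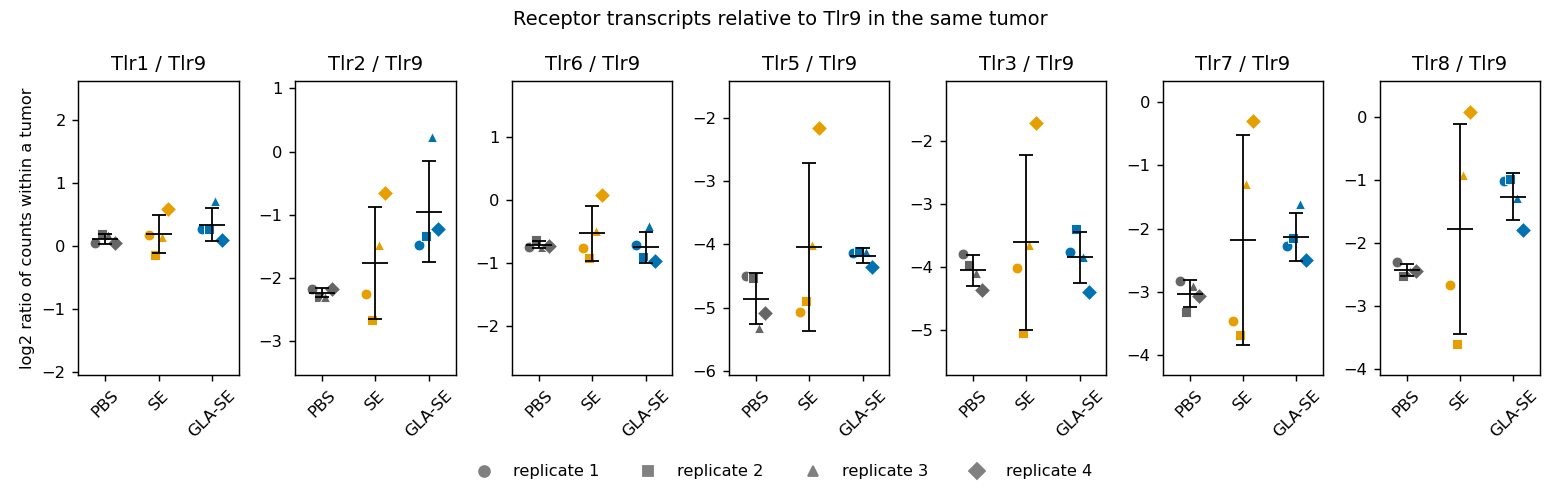
Log2 ratio of each receptor's count to the Tlr9 count of the same tumor (vertical axes of equal span), by group, with symbols for replicate numbers and mean ± SD of 4 tumors. The GLA-SE tumors lie above the PBS tumors without overlap for Tlr2, Tlr5, Tlr7 and Tlr8, and the SE tumors overlap both groups for all 7 receptors.

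The emulsion alone gave no call. SE tumors split into replicates 1 and 2, which were low, and replicates 3 and 4, which were high, for Tlr2, Tlr3, Tlr5, Tlr6, Tlr7 and Tlr8. Tlr1 had the same order but varied little. Tlr7 was at 46.1 and 46.9 in the first pair and at 237 and 377 in the second, and Tlr8 at 80.9 and 50.0 and then at 307 and 487. SE replicate 4 exceeded every GLA-SE tumor for Tlr3 (138), Tlr5 (102), Tlr6 (484), Tlr7 and Tlr8, whereas replicates 1 and 2 lay below every PBS tumor for Tlr7 and Tlr8.

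Tlr2 was at 107, 96.8, 207 and 293, with only the latter pair above the PBS tumors. Tlr1 (584, 560.2, 642 and 694) and Tlr9 (517, 619.6, 583 and 462) varied little, and Tlr9 was lowest in the tumor where the other endosomal receptors were highest. Replicate 4 also had the lowest reference level, a geometric mean of 1011, so its values rest on the largest upscaling.

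Against PBS the log2 fold changes in SE tumors were 1.37 for Tlr7 (standard error 0.71), 1.16 for Tlr8 (standard error 0.68), 1.13 for Tlr5 (standard error 0.64), 0.79 for Tlr3 (standard error 0.61), 0.58 for Tlr2 (standard error 0.40), 0.17 for Tlr6 (standard error 0.20), 0.04 for Tlr1 (standard error 0.13) and -0.03 for Tlr9 (standard error 0.15). The adjusted p values by edgeR ran from 0.254 to 0.894. Without SE replicate 4 the log2 fold changes were 0.69 for Tlr7, 0.50 for Tlr8, 0.26 for Tlr5, 0.22 for Tlr2 and -0.08 for Tlr3. Of all 750 genes 0% were called by edgeR in this comparison, and 140 genes, none of them a member, had an unadjusted p under 0.05. DESeq2 with the same reference scaling called 52 genes higher and 6 lower, 0 of them members. In this comparison 8.67% of all genes were higher without overlap and 0 members were. The standard errors of Tlr5, Tlr7 and Tlr8 were larger here (0.64 to 0.71) than in GLA-SE against PBS (0.21 to 0.26), so the lack of a call does not show that the emulsion left these receptors alone.

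Against SE tumors, 0 of the 8 receptors were called in GLA-SE tumors, beside 2.13% of all genes. The log2 fold changes were 1.24 for Tlr2 (standard error 0.50, adjusted p = 0.239 by edgeR), 0.59 for Tlr1 (standard error 0.17, adjusted p = 0.119) and 0.44 for Tlr9 (standard error 0.19, adjusted p = 0.282), and they were -0.15 to 0.43 for the other members. That of Tlr8 (0.43) was 0.09 without SE replicate 2 and 1.09 without SE replicate 4. Tlr1 and Tlr2 had an unadjusted p under 0.05, as did 133 of all genes. Tlr1 and Tlr9 were higher in every GLA-SE tumor than in every SE tumor on the normalized scale, as were 14.4% of all genes, but neither was as a deposited count, whereas Tlr2 overlapped on the normalized scale and was higher without overlap as a deposited count. Tlr1 was called when SE replicate 4 was left out (log2 fold change 0.64, adjusted p = 0.0326 by edgeR), in a fit that called 13.6% of all genes. By DESeq2 with the reference scaling 1 member, Tlr1, was called, beside 14.3% of all genes. No ratio to Tlr9 separated SE tumors from either other group, against 3.47% of genes higher without overlap in GLA-SE tumors than in SE tumors and 4.81% in SE tumors than in PBS tumors.

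Cell type markers differed between the groups in ways that varied by list, and their part in the results was not tested beyond the ratios given here. Of the 8 B cell markers, 5 had deposited counts above 223, the highest count of the 8 liver or lung genes, in every tumor, and the lowest count of the others was 41. Their summed normalized count was 18430 to 21740 in the PBS tumors, 12990 to 21380 in the SE tumors and 14970 to 17320 in the GLA-SE tumors. For GLA-SE against PBS, 2 of 8 were lower and 0 higher (7 lower with TMM and 8 with the panel median).

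The 10 monocyte and macrophage markers summed to 32580 to 40880 in PBS tumors and to 90870 to 126400 in GLA-SE tumors. All 10 were called higher, as they were with TMM, and 2 were with the panel median. In the SE tumors the sum was 27820 and 34880 in replicates 1 and 2, and 82910 and 120100 in replicates 3 and 4. Replicates 3 and 4 also lay above replicates 1 and 2 for every receptor but Tlr9. The same held for the neutrophil, T cell, NK cell, and endothelium and fibroblast sums, but not for the dendritic cell or B cell sums.

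Neutrophil markers summed to 219 to 248 in the PBS tumors, 217 to 1217 in the SE tumors and 822 to 8895 in the GLA-SE tumors, where the highest value was that of replicate 3, the tumor with the most Tlr2. Within its group that tumor also had the highest monocyte and macrophage, dendritic cell and T cell sums, and the lowest NK cell sum. Of the 7 neutrophil markers 3 were called higher for GLA-SE against PBS, also with TMM, where 1 was lower, while with the panel median 2 were higher and 4 lower. Markers of endothelium and fibroblasts summed to 4118 to 9291 in the PBS tumors, 18130 to 26710 in the GLA-SE tumors, and 3544, 4487, 28270 and 121800 in the SE tumors. The highest of these was SE replicate 4, which also had the most Tlr3, Tlr5, Tlr6, Tlr7 and Tlr8 and the highest T cell sum. All 10 were called higher for GLA-SE against PBS on the reference scale, 2 with TMM, and with the panel median 0 were higher and 1 lower.

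T cell markers summed to 826 to 2279, 688 to 4798 and 2404 to 3245 in the PBS, SE and GLA-SE tumors, with 5 of 7 called higher for GLA-SE against PBS and 0 with TMM or the panel median. NK cell markers summed to 191 to 513, 205 to 658 and 686 to 781 (2 of 4 higher, but 1 lower and 0 higher with TMM or the panel median). Dendritic cell markers summed to 638 to 777, 676 to 876 and 844 to 1208 (2 of 4 higher, but 2 lower and 0 higher with TMM or the panel median). No marker of any list was at 0 in any tumor, but no background was subtracted from the counts. Deposited counts above 223 in every tumor were found for 6 of 10 monocyte and macrophage markers and 3 of 10 endothelium and fibroblast markers. For the neutrophil, T cell, NK cell and dendritic cell lists this held for 0 markers. Their lowest counts were 4, 35, 7 and 11.

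Set against the mean log2 count of the B cell markers in the same tumor, 6 of the 8 receptors were higher in every GLA-SE tumor than in every PBS tumor, as were 65.6% of 742 genes. The difference was 1.74 for Tlr2, 1.61 for Tlr8, 1.34 for Tlr7, 1.13 for Tlr5, 0.67 for Tlr1 and 0.41 for Tlr6, each with an exact permutation p = 0.0286 and 0.0433 after adjustment over those genes. Tlr3 (0.65) and Tlr9 (0.45) overlapped between the groups, each with an exact permutation p = 0.0857. These bases were chosen after the data were seen.

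Set against the monocyte and macrophage markers, 4 of the 8 receptors were lower in every GLA-SE tumor than in every PBS tumor, near the 51.4% of 740 genes that were lower without overlap on this base. Tlr2 differed by 0.12 between GLA-SE and PBS tumors (exact permutation p = 0.8), Tlr8 by -0.01 (exact permutation p = 1), Tlr7 by -0.28 (exact permutation p = 0.0571) and Tlr5 by -0.49 (exact permutation p = 0.171), and all 4 overlapped between the groups. Tlr6 (-1.21), Tlr9 (-1.17), Tlr3 (-0.97) and Tlr1 (-0.95) were the 4 that lay lower, each with an exact permutation p = 0.0286 and 0.0529 after adjustment, which does not pass 0.05. No test compared the receptors with each other on this base. In the SE tumors Tlr7 and Tlr8 had differences of 0.08 and -0.12 from the PBS tumors relative to these markers. Their SDs in the SE tumors were 0.29 and 0.33, against 1.66 for both relative to Tlr9. The SDs of Tlr5 (0.51 against 1.33), Tlr3 (0.57 against 1.39) and Tlr2 (0.53 against 0.89) were also smaller on this base. The differences of Tlr5, Tlr3 and Tlr2 from the PBS tumors were 0.06, -0.32 and -0.29. For Tlr1 and Tlr6 the SDs were larger on this base than relative to Tlr9. Tlr9 itself had an SD of 1.39 relative to these markers in the SE tumors, so the spread of the ratios to Tlr9 also holds that of the base. The share of all genes with a smaller SD was not computed.

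**Figure D4:**
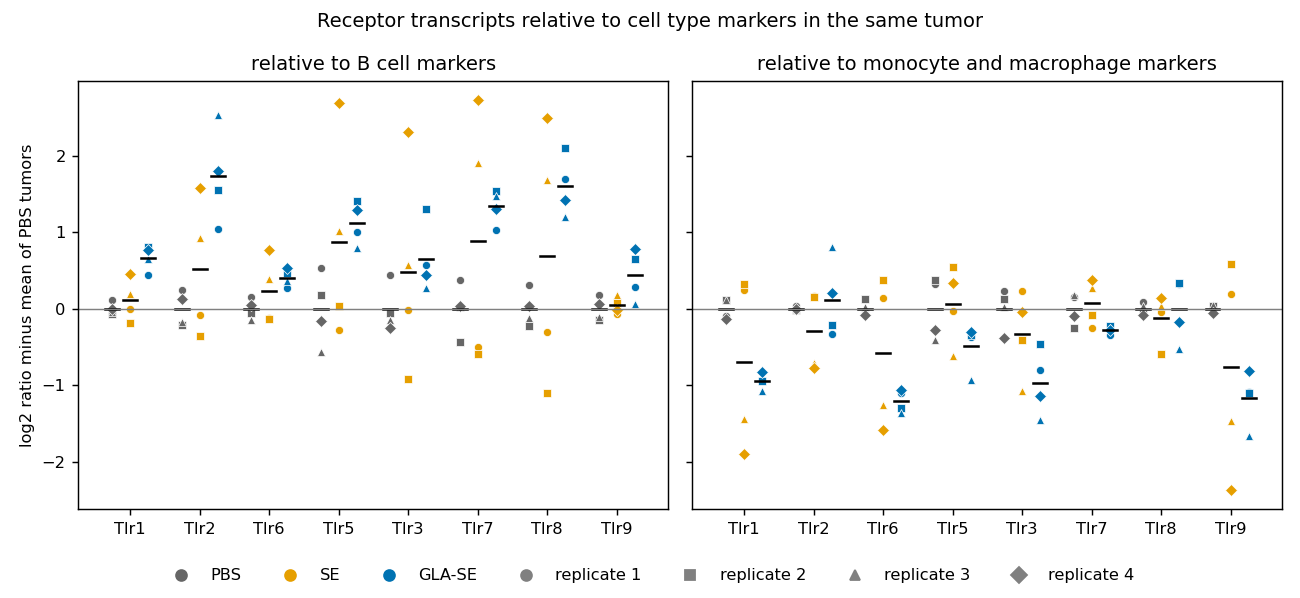
Log2 ratio of each receptor to the mean of 8 B cell markers (left) or 10 monocyte and macrophage markers (right) in the same tumor, minus the mean of the PBS tumors, with a bar for the mean of 4 tumors. Relative to monocyte and macrophage markers, GLA-SE tumors overlap PBS tumors for Tlr2, Tlr5, Tlr7 and Tlr8 and lie below them for Tlr1, Tlr3, Tlr6 and Tlr9; relative to B cell markers they lie above for all but Tlr3 and Tlr9.

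The genes that ran most evenly with Tlr7 and with Tlr8 were found from the SD of the log2 ratio over the 12 tumors, among 669 other genes with a mean count of at least 20. For Tlr7 they were Tnfrsf1a (SD 0.142), the macrophage marker Cd68 (0.172) and the lysosomal membrane gene Cd63 (0.19). For Tlr8 they were the interferon-induced gene Ifit3 (0.172) and the complement genes C1s1 (0.236) and C2 (0.251). The median SD over all candidate genes was 0.74 for Tlr7 and 0.804 for Tlr8.

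For Tlr9 they were the phosphatase Inpp5d (0.16) and the immunoproteasome genes Psmb8 (0.165) and Psmb10 (0.192), for Tlr1 they were Lcp1 (0.121), Ncf4 (0.122) and Tap2 (0.128), and for Tlr6 they were Tgfb1 (0.0854), Stat6 (0.0997) and Crebbp (0.108). Tlr3 (Fut7 at 0.234, Vegfc at 0.303 and Ccr9 at 0.304) and Tlr5 (Vegfc and Cd209e at 0.275 and Eng at 0.279) had the loosest partners, and both had low counts. Among the receptors themselves the tightest pair was Tlr1 with Tlr6 (SD 0.197), the neighbors on chromosome 5, followed by Tlr1 with Tlr9 (0.233), Tlr6 with Tlr9 (0.282) and the neighbors Tlr7 with Tlr8 (0.346). Many other genes of the panel ran more evenly with each of these neighbors. Of 669 genes, Tlr6 ranked 24 for Tlr1 and Tlr1 ranked 52 for Tlr6. Tlr8 ranked 43 for Tlr7 and Tlr7 ranked 18 for Tlr8. Tlr8 with Tlr9 was the loosest pair (1.02). Genes that change little between tumors run evenly with each other by this measure, so a small SD alone does not show shared regulation, which was not tested.

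Other genes of the pathway were read from fixed lists. Of the accessory receptors and Tlr4, 6 of 7 were called higher in GLA-SE than in PBS tumors on the reference scale, while 2 were higher and 2 lower with TMM and 1 higher and 4 lower with the panel median. Cd14, which hands lipopolysaccharide and lipoproteins to the receptors, rose by 3.69 on the log2 scale (standard error 0.93, adjusted p = 0.00775 by edgeR), or 2.00 without GLA-SE replicate 3, and stayed called on both other scales. Lbp (1.81), which loads Cd14, Cd36 (1.02), a coreceptor of Tlr2 with Tlr6, and Ly96 (0.78) and Ly86 (0.42), the partners of Tlr4 and Cd180, were also called, and Cd180 (0.04) was not. Of these, Ly96 and Ly86 turned negative with TMM and with the panel median, and Cd36 with the panel median.

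Of the TIR adaptors, which carry the signal from the receptors, Myd88 (0.80, adjusted p = 0.00279) and Ticam1 (0.53, adjusted p = 0.0263) were called higher by edgeR on the reference scale, and Tirap (0.18) and Ticam2 (-0.19) were not. The call of Ticam1 was lost without PBS replicate 2 or 3 or GLA-SE replicate 4. With TMM 0 adaptors were higher and 2 lower, and with the panel median all 4 were lower. Of 12 kinases and ubiquitin ligases 9 were higher, with the largest log2 fold changes for Irak2 (1.74) and Ikbke (1.67), which alone remained higher with TMM, where 9 were lower, while with the panel median 0 were higher and 10 lower. Of 6 NF-kB and IRF transcription factors 4 were higher, led by Irf7 (1.68), the interferon-inducing factor downstream of Tlr7 and Tlr9, and Rela (0.45, a call lost without any PBS tumor or without GLA-SE replicate 4), whereas with TMM Irf7 alone was higher and 5 were lower, and with the panel median 0 were higher and 5 lower.

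All 6 inhibitors of the pathway were called higher on the reference scale, namely Tnfaip3 (1.85), Nfkbia (1.49), Irak3 (1.36), Sigirr (0.79), Cyld (0.60) and Tollip (0.47). With TMM 0 were higher and 1 lower, and with the panel median 0 were higher and 3 lower. Of 6 cytokine and chemokine outputs 4 were higher (3 with TMM, and 2 higher and 1 lower with the panel median), with the largest log2 fold changes for Il6 (4.07, standard error 1.03) and Cxcl2 (3.35, standard error 0.93). Without GLA-SE replicate 3, the tumor with the most Tlr2, the log2 fold changes were 2.30 for Il6, 2.10 for Cxcl2, 1.09 for Tnfaip3 and 0.83 for Nfkbia, and 3 outputs were called. The list medians were 0.78 for accessory receptors, 0.36 for adaptors, 0.47 for kinases, 0.40 for transcription factors, 1.08 for inhibitors and 2.34 for outputs, beside 0.89 over all genes.

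In SE against PBS tumors 0 genes of these lists were called. In GLA-SE against SE tumors the call was confined, among these lists, to the interferon-induced chemokine Cxcl10 (2.09, standard error 0.27, adjusted p = 0.00974 by edgeR), and this call was lost with TMM (1.53), with the panel median (1.05), without SE replicate 3 (2.06) and with a replicate block (2.05).

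**Figure D5:**
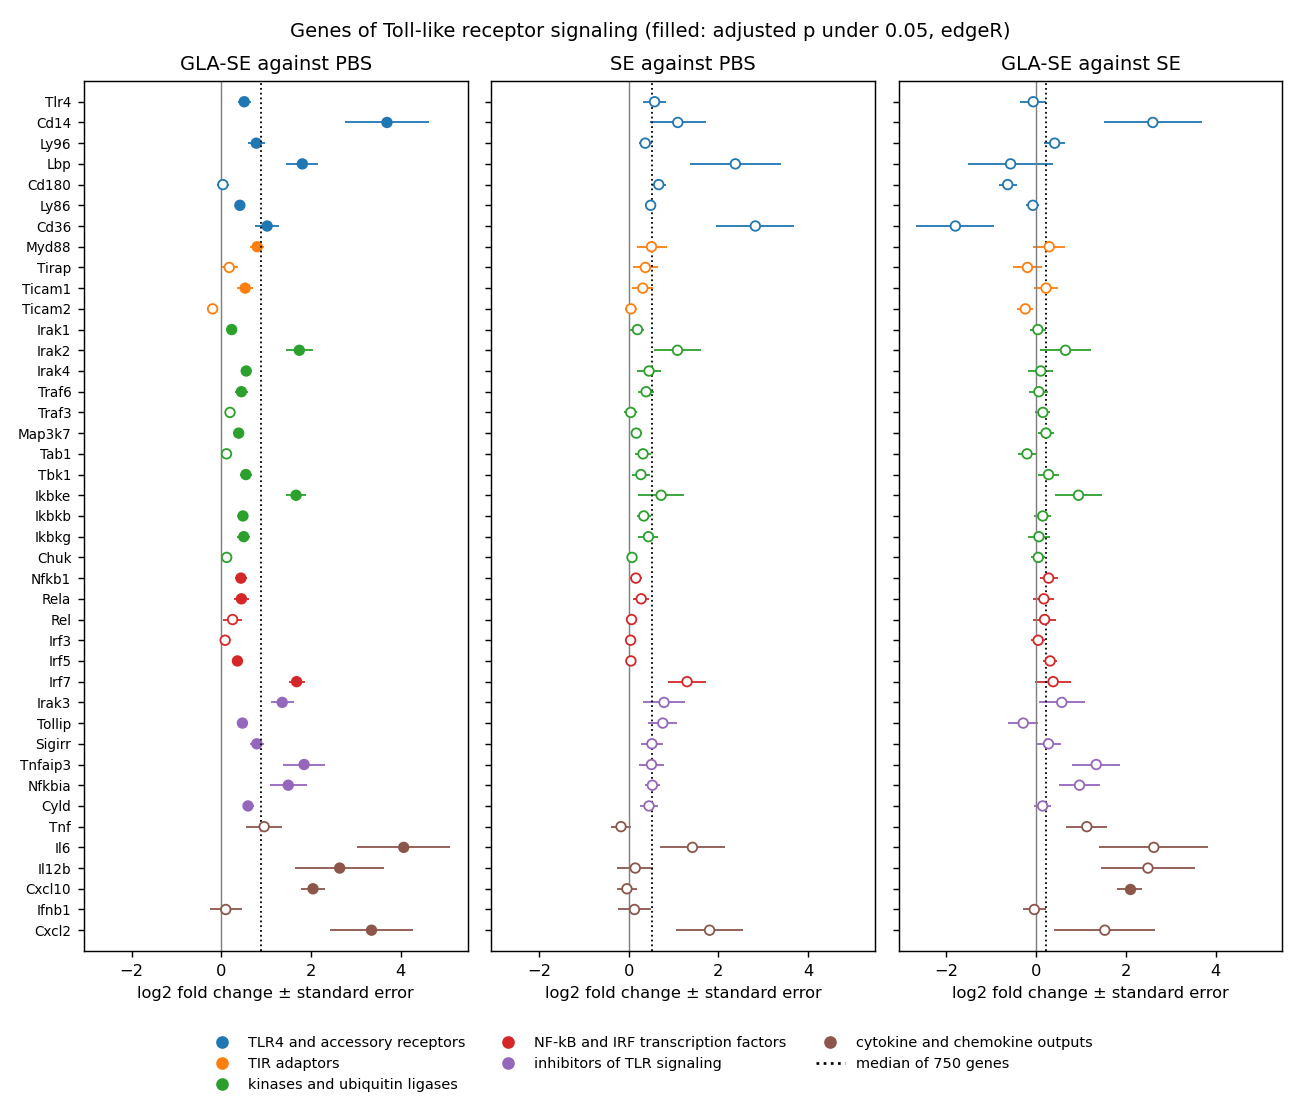
Log2 fold change (horizontal axis, ± standard error, edgeR, reference scale) of 41 genes of Toll-like receptor signaling, colored by list, in the 3 comparisons. Filled circles have an adjusted p under 0.05 and the dotted line is the median of 750 genes; most kinases, adaptors and transcription factors lie left of that line in GLA-SE against PBS and turn lower with TMM or the panel median.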

How the data were processed

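Gene expression of 12 A20 tumors was read from the table of counts that the authors deposited, whole numbers of barcoded probes for 770 genes with no background subtracted. The methods describe nSolver normalization, but totals and reference genes differ between tumors, so the counts were treated as not normalized. No genome build applies to them. Counts were scaled to 17 reference genes kept by the geNorm procedure (of 20), a scale shared by all tumors. The 8 tumors of each comparison were fitted in R 4.3.3 by edgeR 4.0.16 with neither filter nor covariates, and p values were adjusted over 750 genes with a threshold of 0.05. Within-tumor ratios used a pseudocount of 1 and two-sided exact permutation tests (70 assignments). Fits were tested on simulated data. Precision is limited by the count and by 4 tumors per group. The named pathway genes are those called with the largest change in GLA-SE against PBS (at least 2 of each list) and all genes of the receptor, adaptor and inhibitor lists. The genes running most evenly with Tlr2 are not reported here. The members and lists were chosen with earlier results of these data known. Alternatives were other reference gene choices, panel median and TMM scaling, no rescaling, a filter of 20 counts in 4 tumors, all 12 tumors together, a replicate block, DESeq2 1.42.0, limma 3.58.1 with a pseudocount of 10, and leaving out each tumor. Sequences are from RefSeq (GRCm38.p6). Plots were made in Python 3.11.15 with matplotlib 3.10.9.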

Additional observations from a re-analysis of the deposited data

Results flagged for a closer look

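In 5 of 96 groups of 4 values, for 8 receptors as normalized counts and as ratios, a tumor stood apart from the other 3 by more than a 5% rule for small groups allows, and chance gives about 4.8. Tlr6 in PBS replicate 3 had a normalized count of 295 (others 347.8 to 355.1). The log2 ratio of Tlr2 to Tlr9 in GLA-SE replicate 3 was 0.2335 (others -1.476 to -1.222). That of Tlr5 to Tlr9 in GLA-SE replicate 4 was -4.357 (others -4.138 to -4.101), and that of Tlr6 to Tlr9 in PBS replicate 2 was -0.6319 (others -0.7506 to -0.7318). The log2 ratio of Tlr5 to the monocyte and macrophage markers in GLA-SE replicate 3 was -6.131 (others -5.566 to -5.503).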

How the results depend on the processing

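For GLA-SE against PBS, 7 members were called. The number was 3 (all lower, beside 49.1% of all genes called) with the panel median and 4 (2 of them lower, beside 42.1%) with TMM. It was 4 (1 lower, beside 45.6%) with DESeq2's own size factors and 2 (beside 33.7%) with all 12 tumors together. With all 20 reference genes (beside 64.4%) and with no rescaling (beside 49.1%) it was 5, as Tlr6 and Tlr9 were no longer called. Their log2 fold changes were 0.29 and 0.33 with all 20 reference genes and 0.08 and 0.13 with no rescaling. With the filter of 20 counts (beside 74.6%) and DESeq2 under the reference scaling (beside 68.9%) it was 8. Leaving out a tumor gave 5 to 8. Against SE, 0 members became 1, namely Tlr2 without rescaling (beside 11.9% of all genes) and with DESeq2's own factors (9.6%), and Tlr1 with all 12 tumors together (9.33%), with DESeq2 under the reference scaling (14.3%) and without SE replicate 4 (13.6%, range 0 to 1 member). Replicate numbers were shared by the groups, and no pairing of the tumors is stated. Deviations of same-numbered tumors correlated at -0.25 to 0.18, which does not settle whether the numbers pair the tumors. With the numbers as a replicate block 5 members were called for GLA-SE against PBS, without Tlr6 (0.36) and Tlr9 (0.40), and 0 in the other comparisons.

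Signs turned as follows, and the cause was not tested. For GLA-SE against PBS, with the panel median, TMM and DESeq2's own size factors, Tlr1 was -0.66, -0.28 and -0.22, Tlr3 -0.62, -0.25 and -0.18, Tlr6 -0.92, -0.54 and -0.48, and Tlr9 -0.84, -0.47 and -0.41, and Tlr5 was -0.19 with the panel median. For SE against PBS, with the panel median, TMM, no rescaling and DESeq2's own factors, Tlr1 was -0.34, -0.37, -0.33 and -0.31 (-0.0085 with all 20 reference genes) and Tlr6 -0.29, -0.30, -0.26 and -0.24. Tlr2 was -0.080 and -0.022 with the panel median and TMM, and Tlr3 -0.070 with the panel median. For GLA-SE against SE, Tlr1 was -0.32 with the panel median, Tlr6 -0.63, -0.21 and -0.29 and Tlr9 -0.53, -0.067 and -0.16 with the panel median, TMM and DESeq2's own factors. In the same comparison, with no rescaling, the replicate block and limma, Tlr3 was 0.26, 0.21 and 0.12, Tlr5 0.38, 0.31 and 0.17, and Tlr7 0.41, 0.50 and 0.41. Reference genes chosen within the 8 tumors gave 0.00061 for Tlr5 and 0.010 for Tlr7, and a pseudocount of 10 gave -0.0008254 for Tlr7 relative to Tlr9. Leaving out a tumor gave, for SE against PBS, -0.014 to 0.090 for Tlr1, -0.080 to 1.09 for Tlr3 and -0.094 to 0.044 for Tlr9, and for GLA-SE against SE -0.46 to 0.72 for Tlr3, -0.37 to 0.79 for Tlr5 and -0.39 to 0.61 for Tlr7; SE replicate 4 set the far end of each.

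With 4 tumors per group and counts of 16 to 72 for Tlr3 and Tlr5, small differences in these receptors were not detectable at this depth. With the filter of 20 counts Tlr3 was called as well (0.64, adjusted p = 0.0482 by edgeR).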
